A study of Mus musculus with 12 samples.

Results

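Each of a set of 318 mouse genes was brighter on at least 2 of 5 reprogramming arrays than in starting fibroblasts and pluripotent lines. They are 318 of the 19938 genes measured (1.59%); 137 genes met the rule without the WT day 8 array and 168 without the flox/- day 4 array. The arrays fell into 5 from cells treated with doxycycline (DOX) and 7 from MEF, iPSC and ESC. A gene belongs to the set when its second highest value among the 5 DOX arrays exceeded its highest value among the other 7 by at least 0.7 on the log2 scale, a fold of 1.62. One probe set stood for each gene, the one with the highest mean. Of the 14 members with several probe sets, only 7 met the rule on every one of them. The DOX arrays and the other arrays therefore chose the members, and the difference between them is described here and not tested.

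Total RNA of mouse cells was measured on 12 arrays, 1 for each combination of genotype and stage, in a study of the Mbd3 gene during reprogramming. Mouse embryonic fibroblasts (MEF) gave 3 arrays, of Mbd3+/+ (WT), Mbd3flox/- (flox/-) and Mbd3-/- (-/-) genotype. The WT and flox/- MEF carried a DOX-inducible OSKM transgene, which encodes Oct4, Sox2, Klf4 and Myc, whereas the label of the -/- MEF names none. DOX-treated cells gave 5 arrays: WT at days 4, 8 and 11 and flox/- at days 4 and 8. The pluripotent group held 4 arrays, of induced pluripotent stem cells (iPSC) from WT and flox/- cells, of a -/- embryonic stem cell (ESC) line and of the WT V6.5 ESC line; neither ESC label names the transgene. An earlier series supplied 2 of the arrays, WT day 8 and WT ESC, and 1 label of the WT day 8 array names day 4 while its title and stage say day 8. Cells were grown in 2i/LIF medium on irradiated DR4 MEF feeders, so feeder RNA can be in any sample. These are bulk samples, in which fewer cells of a type and less RNA per cell cannot be told apart. No label says that arrays of 1 genotype came from the same culture, and the spread between arrays of a group includes genotype and day.

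Reprogramming turns fibroblasts into pluripotent cells through intermediate states in which the fibroblast programme is lost and epithelial features appear, the mesenchymal-to-epithelial transition. Epithelia hold their cells together with tight junctions, built on claudins, and with desmosomes, built on desmosomal cadherins, plakophilins and plakins, which anchor keratin filaments. Simple epithelia such as trophoblast use the keratins Krt8, Krt18, Krt7 and Krt19, while stratified epithelia such as epidermis use Krt14, Krt6 and Krt16 and, in their upper layers, transglutaminases and lipoxygenases that build the skin barrier.

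Before the members are described, the labels were set against known genes. Mbd3, the gene the study altered, read 6.76 to 8.11 on the 2 -/- arrays, 8.73 to 9.13 on the 4 flox/- arrays and 9.02 to 9.64 on the 6 WT arrays. The summed signal of 6 fibroblast markers, in log2 units, was 14.76 to 14.90 in MEF, 13.84 and 12.59 at WT days 4 and 11, 11.73 at flox/- day 4, 10.77 at WT day 8 and 9.28 at flox/- day 8. The summed signal of 6 pluripotency markers was 14.79 at flox/- day 8 and 14.21 at WT day 11, inside or near the 14.69 to 14.83 of the pluripotent arrays, but 7.96 at WT day 8, close to the 7.64 to 7.79 of MEF. At WT day 8, Nanog read 5.56 and Sox2 6.37, whereas Nanog read 9.17 at WT day 4. The WT day 8 array, which carries more members than any other, thus read low for fibroblast markers and also for pluripotency markers.

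An array is said to carry a member when the gene's value there lay at least 0.7 above the highest of the 7 other arrays. WT day 8 carried 256 of the 318 members (80.5%), and flox/- day 4 carried 223 (70.1%). WT day 11 carried 126, WT day 4 carried 112 and flox/- day 8 carried 24. Of all genes measured, 5.02% stood past this margin at WT day 8, 1.93% at flox/- day 4, 1.0% at WT day 11, 0.823% at WT day 4 and 0.381% at flox/- day 8. The arrays ranked alike in all genes and in members, but the members are counted among all genes. They made up 68.3% of the genes past the margin at WT day 4 and 25.6% at WT day 8. The like ranks are thus in part the same genes counted again. WT day 8 was also the array with the highest value for 187 members. All 5 arrays were set against the same 7.

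The most common combination was flox/- day 4 with WT day 8 and no other array, held by 127 members (39.9%). WT day 8 with WT day 11 held 34 members, both day 4 arrays with WT day 8 held 27, and WT day 4 with WT day 8 and WT day 4 with WT day 11 held 18 each. Both day 4 arrays alone held 15, and flox/- day 8 with WT day 11 held 11. Members carried by 2 arrays numbered 233, by 3 arrays 65 and by 4 arrays 20; none was carried by all 5. By genotype, 239 members were carried in both, 78 by WT arrays only and 1 by flox/- arrays only, out of 3 WT and 2 flox/- arrays. That 1 gene was Pom121l2, at 7.28 and 7.05 at flox/- days 4 and 8 and 5.35 to 5.64 on the other arrays.

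**Figure D1:**
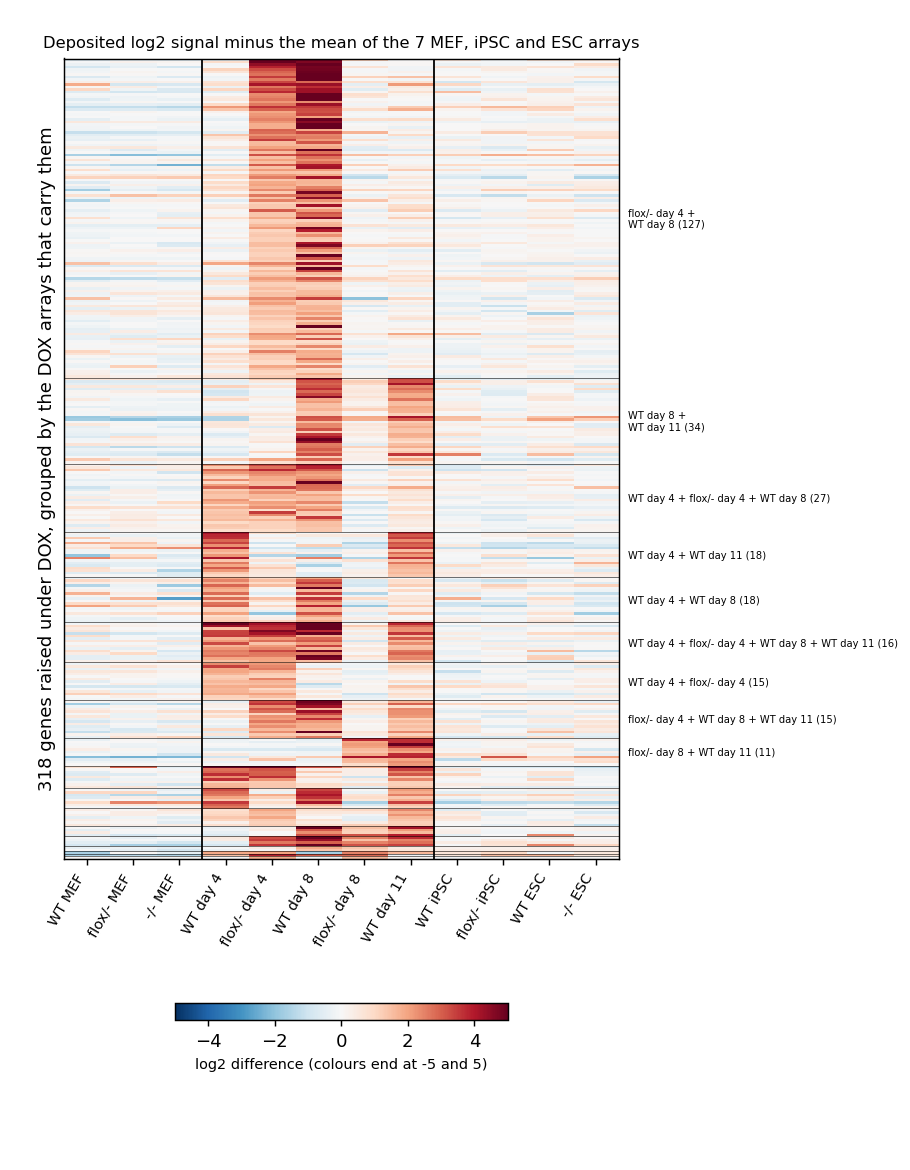
Heat map of the 318 genes (rows) on the 12 arrays (columns), as deposited log2 signal minus the mean of the 7 MEF, iPSC and ESC arrays, with rows grouped by the DOX arrays that carry them and the number of genes beside each combination. The block of 127 genes at the top is red at flox/- day 4 and WT day 8 and pale at flox/- day 8.

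**Figure D2:**
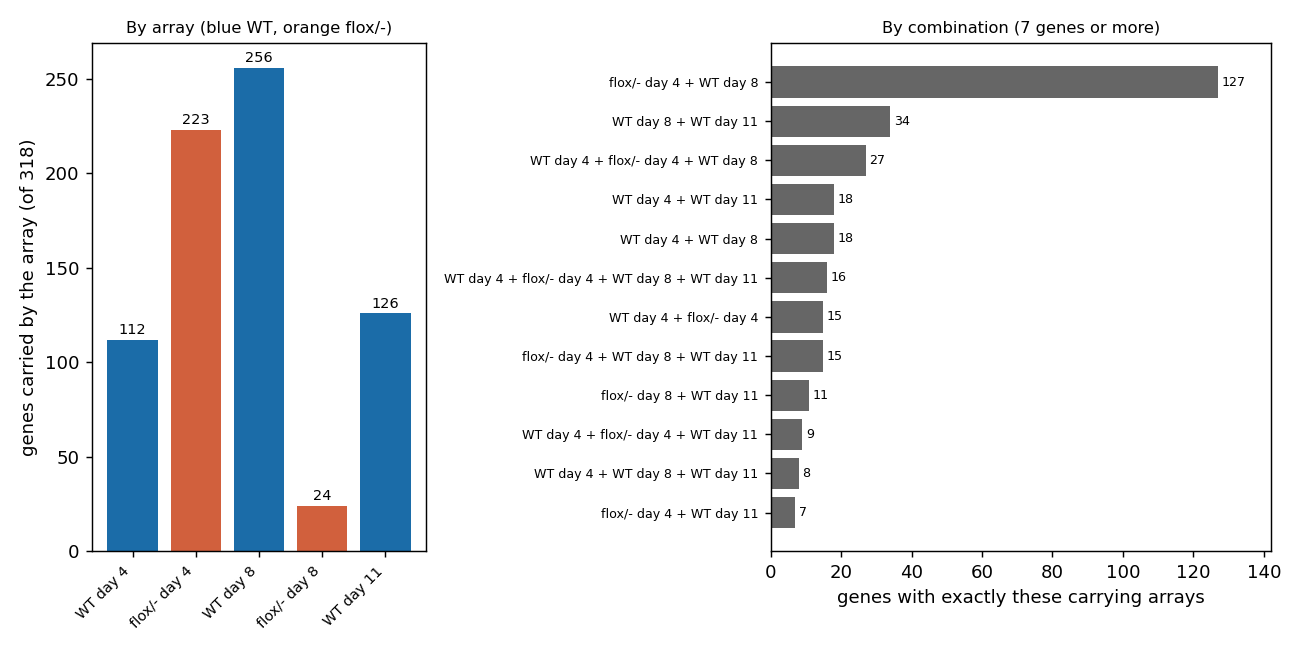
Left, the number of the 318 genes that each DOX array carries, with WT arrays in blue and flox/- arrays in orange. Right, the number of genes with exactly each combination of carrying arrays, for combinations of 7 genes or more; WT day 8 carries 256 genes and flox/- day 8 carries 24.

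The margin ran from 0.70 to 5.41 with a median of 1.10, and it was at least 1 for 194 members, at least 2 for 50 and at least 3 for 16. Just inside the threshold stood Phykpl, Adamts20 and Slc2a1, with margins of 0.70, 0.71 and 0.71. Just outside stood Sp6, Rhou and Tpcn1, each with a margin of 0.697. In the other 7 arrays, 112 members (35.2%) lay below the array's median on every one. That share was not computed for all genes, but only 13044 of the 19938 genes lay above an array median at least once. The members are therefore not read as dimmer than other genes outside DOX. The highest of the 7 values was on a pluripotent array for 202 members and on a MEF array for 116. On 19 members all 5 DOX arrays lay above every other array.

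Of the 57 measured genes of an epidermal and stratified epithelial list, 18 were members (31.6%, against 1.59% of all genes), the largest share of any list when all 12 arrays were used. WT day 8 carried all 18 of them, flox/- day 4 carried 16, WT day 11 carried 4, flox/- day 8 carried 1 and WT day 4 carried none. The list is wider at WT day 8 than its members show: 40 of its 57 genes stood past the margin there, and 22 of those failed the rule because no second DOX array did. Without the 2 arrays of the earlier series, 2 of the 57 genes met the rule, Dsp and Dsc2 (3.51%, against 0.752% of all genes), and the order of the lists turned: 7 of 54 simple epithelial genes and 6 of 46 trophoblast genes met it.

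Krt14, Krt16, Krt6a, Krt6b and Krt13 are filament proteins of stratified epithelia. Krt14, of the basal layer, read 7.70 at flox/- day 4 and 12.16 at WT day 8, with 5.32, 6.18 and 5.53 at WT day 4, flox/- day 8 and WT day 11 and 5.24 to 5.53 on the other 7 arrays. Krt16, induced in wounded and dividing epidermis, read 11.92 at WT day 8, 136-fold above its highest value outside DOX, but 5.78 at flox/- day 4 and 4.54 to 4.75 on the remaining DOX arrays. Krt6b read 6.71 and 9.30 at flox/- day 4 and WT day 8 against 3.87 to 4.09 outside DOX. Only these 2 DOX arrays carried these keratins, and WT day 8 was the higher each time. Krt6a with Krt6b and Krt14 with Krt16 are closely related in sequence, so part of a pair's signal may come from its partner.

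Krtdap, a secreted protein of differentiating keratinocytes, read 9.11 at flox/- day 4 and 10.52 at WT day 8; the other 3 DOX arrays lay at 4.61 to 4.73 and the 7 remaining arrays at 4.40 to 5.61. Its margin of 3.49 rests on both high arrays, since it is -0.88 without either. The lipoxygenases Alox12b and Aloxe3, which act in turn on lipids of the skin barrier, read 5.92 and 6.84 at flox/- day 4 and 12.05 and 9.81 at WT day 8. Alox8, of the same enzyme family, read 7.07 and 8.31. Transglutaminase Tgm3, which crosslinks proteins of the cornified layer, read 8.41 and 11.35 on the same arrays, with 5.09 to 6.36 outside DOX. Flox/- day 8 was inside the range of the other 7 arrays for Tgm3, where it read 5.71.

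Desmosomal genes were among the members in several roles. Dsc2, a desmosomal cadherin, read 5.53, 8.61, 9.50, 6.60 and 7.62 at WT day 4, flox/- day 4, WT day 8, flox/- day 8 and WT day 11, against 4.88 to 5.52 outside DOX. Dsp, desmoplakin, which ties desmosomes to keratin, read 7.73, 10.99, 12.03, 8.55 and 10.34 in the same order, against 5.65 to 6.45 in MEF and 8.19 to 8.47 in pluripotent cells. The plakophilin Pkp1 read 9.38 and 11.37 at flox/- day 4 and WT day 8, and its next highest value was 7.05 at WT day 4. Perp, a desmosome-associated membrane protein that is also a p53 target, read 12.01 and 12.51 there, against at most 10.81 outside DOX, in flox/- iPSC. Dsc2 and Dsp were thus high at WT day 11 as well, whereas Pkp1 and Perp were not carried by it.

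Of the keratinocyte markers that were checked, Krt14, Krt1 and Dsg3 were high at WT day 8 (12.16, 8.25 and 9.65), but Trp63, the factor that defines stratified epithelia, read 5.53 to 5.99 on all 12 arrays, and Krt5, the partner of Krt14, read 4.85 to 5.77. The summed signal of the 6 markers was 12.51 at WT day 8, 8.77 at flox/- day 4, 7.85 to 7.97 on the other DOX arrays and 7.76 to 7.89 outside DOX. The label of a keratinocyte is therefore not given to these cells.

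Simple epithelial and junction genes made up 15 of 54 measured genes of their list (27.8%). WT day 8 carried all 15, WT day 11 carried 13, flox/- day 4 carried 6, flox/- day 8 carried 3 and WT day 4 carried 2. WT day 8 with WT day 11 was thus the usual pair here, where flox/- day 4 with WT day 8 was the usual pair of the epidermal genes. Without the arrays of the earlier series, 7 of the 54 genes met the rule, among them Krt8, Krt18, Krt19 and Cldn3.

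Claudin 7 (Cldn7) read 10.17 at WT day 8 and 9.29 at WT day 11, with at most 7.01 on the other DOX arrays, 5.87 to 6.01 in MEF and 6.11 to 7.49 in pluripotent lines. Cldn4 read 6.88, 8.99, 11.51, 10.26 and 11.42 at WT day 4, flox/- day 4, WT day 8, flox/- day 8 and WT day 11, against 6.34 to 6.69 in MEF and 9.38 to 10.45 in pluripotent lines. Rab25, a small GTPase of epithelial recycling endosomes, read 9.08 at WT day 8 and 9.19 at WT day 11 and at most 7.20 elsewhere. Both late WT arrays stood above all others for these genes, and flox/- day 8 lay within or next to the range of the pluripotent lines.

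Keratins of simple epithelium differed from those of epidermis in that flox/- day 8 carried some. Krt18 read 6.31 and 7.11 at day 4 in WT and flox/-, 10.23 at WT day 8, 10.19 at flox/- day 8 and 10.95 at WT day 11, and its highest value outside DOX was 9.43. Krt8, its filament partner, read 11.86, 13.30, 11.49 and 11.72 on the 4 arrays other than WT day 4, where it read 7.47. Krt7 read 9.82 and 9.38 at WT days 8 and 11 and 7.62 at flox/- day 8. In Krt18 the day 4 and later arrays did not overlap, and only the later arrays carried it into the set. Grhl2, a transcription factor that switches on junction genes, read 6.74 and 7.25 at WT days 8 and 11 and at most 5.88 elsewhere, while Ehf, an epithelial ETS factor, read 10.23 at WT day 8 and 5.95 and 5.45 at day 4 in flox/- and WT.

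Promoter sequences of 3 members of these groups are given for the AP-1 motif TGANTCA, the site of Fos and Jun dimers. The motif was found in the 300 bases from 250 before to 50 after the start of 29.2% of 24 promoters of the WT day 8 and WT day 11 members, 9.8% of 51 promoters of members carried on both day 4 arrays, 4.12% of 97 promoters of the flox/- day 4 and WT day 8 members, 7.63% of all 236 member promoters in the table and 6.97% of 15563 promoters of all genes. By list, the motif was found in 33.3% of the 9 epidermal member promoters and in 27.3% of all 33 promoters of the epidermal list. Among the simple epithelial members, 1 of 10 promoters held it. A high share was thus not particular to the WT day 8 and WT day 11 members. Krtdap and Cldn4 each hold the motif, and Krt14 does not. The AP-1 matches, and the TATA box TATAAA in Krtdap, are in capitals; for Krt14 the capitals mark a Tead motif, GGAATG. Sequences and coordinates are from RefSeq, mouse build GRCm38.p6, and are written 5′ to 3′ on the strand of the gene. Only the first start listed for each gene was used, so other starts of the same gene were not searched.
Krtdap, chr7:30787655-30787954, plus strand: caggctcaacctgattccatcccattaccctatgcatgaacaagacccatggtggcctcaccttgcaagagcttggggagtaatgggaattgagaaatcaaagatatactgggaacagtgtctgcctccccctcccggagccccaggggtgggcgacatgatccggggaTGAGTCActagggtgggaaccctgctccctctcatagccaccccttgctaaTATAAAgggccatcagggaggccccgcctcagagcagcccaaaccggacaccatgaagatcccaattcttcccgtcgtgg
Cldn4, chr5:134946885-134947184, minus strand: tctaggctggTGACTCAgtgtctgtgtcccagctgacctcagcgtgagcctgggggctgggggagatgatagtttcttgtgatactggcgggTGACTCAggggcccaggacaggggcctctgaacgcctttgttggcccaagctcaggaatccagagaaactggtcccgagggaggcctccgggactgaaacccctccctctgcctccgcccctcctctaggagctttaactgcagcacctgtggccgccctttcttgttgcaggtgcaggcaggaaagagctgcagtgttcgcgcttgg
Krt14, chr11:100205981-100206280, minus strand: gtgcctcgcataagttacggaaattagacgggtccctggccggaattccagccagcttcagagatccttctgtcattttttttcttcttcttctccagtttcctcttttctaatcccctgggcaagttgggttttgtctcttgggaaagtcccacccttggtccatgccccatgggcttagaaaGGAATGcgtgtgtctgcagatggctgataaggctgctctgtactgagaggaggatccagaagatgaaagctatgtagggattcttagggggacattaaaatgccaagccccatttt

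The Krtdap and Krt14 promoters are poor in CpG, with an observed over expected CpG ratio of 0.296 and 0.286. The median ratio was 0.247 over the 9 epidermal members with a promoter entry, 0.212 over all 33 genes of that list, 0.429 over the 10 simple epithelial members, 0.62 over all 236 members and 0.626 over all 15563 genes. Low CpG was thus seen in the epidermal list as a whole. Motifs were searched on both strands. The WT day 8 and WT day 11 members also held the Tfap2 motif in 37.5% and the Tead motif in 29.2% of their 24 promoters. In the member promoters, against the promoters of all genes, the E-box CACGTG of Myc was found in 5.93% against 8.4%, the octamer ATTTGCAT of Oct4 in 2.97% against 1.71%, the Klf4 core GGGTGTGG in 5.93% against 3.73%, TATAAA in 10.6% against 12.1%, and the Tfap2 motif GCCNNNGGC in 23.3% against 20.8%. In the epidermal list TATAAA was more common, in 33.3% of the 9 member promoters and 39.4% of all 33. GGAATG was found in 33 of the 236 member promoters and in 13.1% of all. The grainyhead palindrome AACCGGTT was found in 0 of the 236 and in 0.18% of all. A match is a description of letters in the window and does not show a bound site.

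Enzymes of detoxification and lipid metabolism supplied the member with the largest margin. Aldh3a1, an aldehyde dehydrogenase of cornea and stomach, read 10.44, 9.02, 11.60, 4.95 and 8.62 at WT day 4, flox/- day 4, WT day 8, flox/- day 8 and WT day 11, while the other 7 arrays lay at 4.71 to 5.03. It was high on 4 DOX arrays and at the level of the other arrays at flox/- day 8. Cyp4f39, an omega-hydroxylase of very long chain fatty acids, read 11.17 at flox/- day 4 and 11.93 at WT day 8 and at most 6.89 elsewhere. Cyp2s1, a cytochrome P450 of epithelia, read 10.83 and 11.31 on those arrays, with 8.63 in WT iPSC as the highest of the rest. Of 50 measured genes of the detoxification, lipid and steroid list, 6 were members, and WT day 8 carried all 6 while flox/- day 8 carried none. Aldh1a1 and Crabp2 make and bind retinoic acid. Crabp2 read 10.99, 11.86 and 9.33 at WT days 4, 8 and 11 and 9.12 and 6.12 at flox/- days 4 and 8, so that WT day 11 lay near flox/- day 4, and Aldh1a1 read 9.17, 10.06 and 9.36 at WT day 4, flox/- day 4 and WT day 8.

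**Figure D3:**
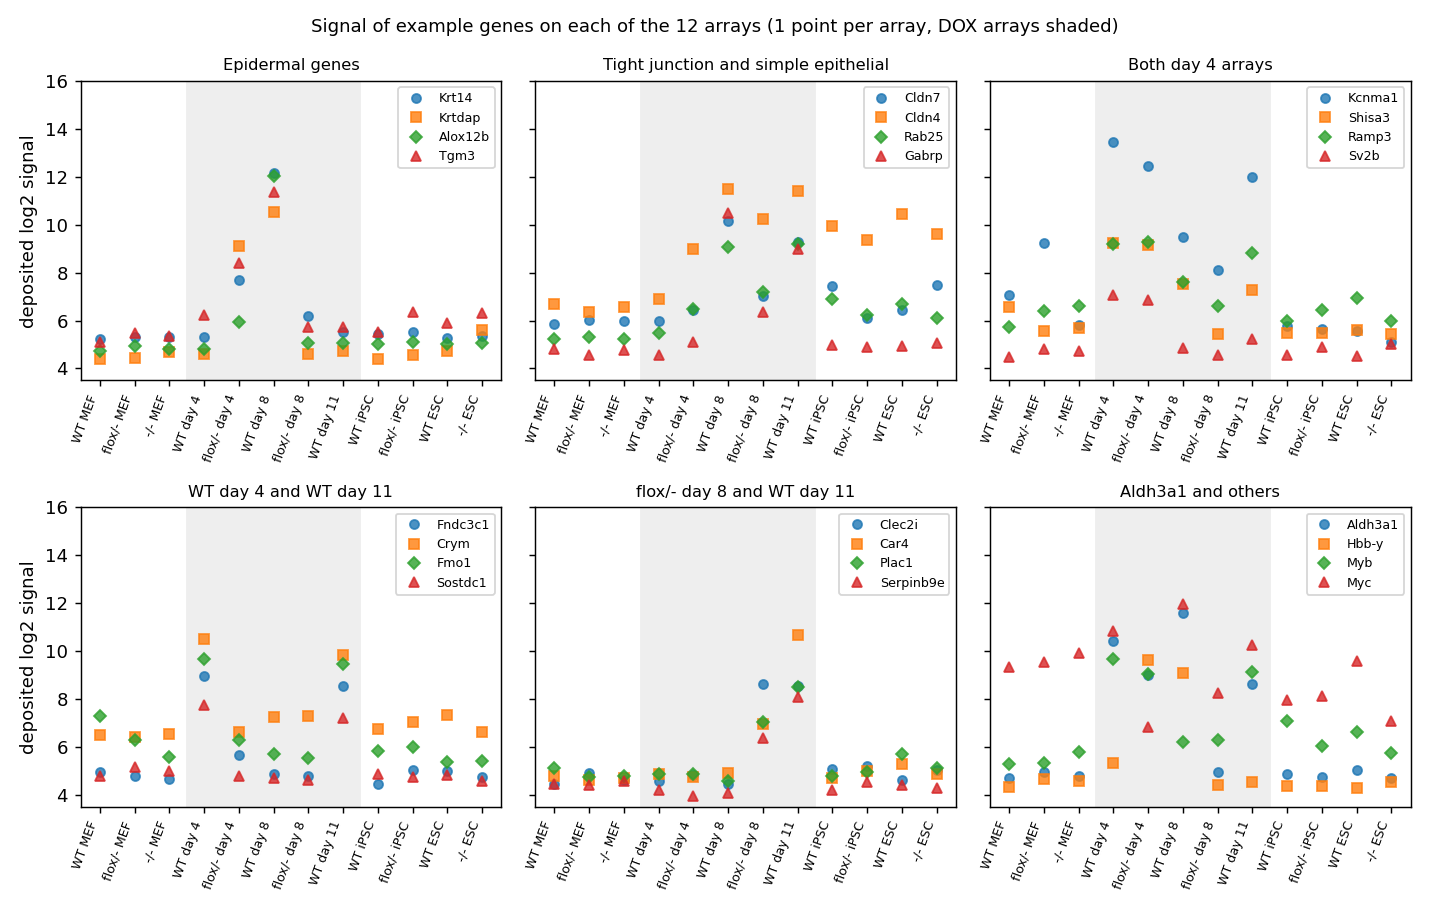
Deposited log2 signal of 24 member genes on each of the 12 arrays, 1 point per array, with the DOX arrays shaded, in 6 panels by the arrays that carry them. Krt14 reaches 12.16 at WT day 8, Clec2i is high only at flox/- day 8 and WT day 11, and Kcnma1 reaches 13.46 at WT day 4.

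Members carried on both day 4 arrays numbered 68. Kcnma1, the pore of a calcium-activated potassium channel, read 13.46 and 12.44 at day 4 in WT and flox/-, 9.47 and 8.10 at day 8 and 11.99 at WT day 11, the highest signal of any member; outside DOX it read 9.22 in flox/- MEF and 5.09 to 7.08 elsewhere, and another of its probe sets did not meet the rule. Ano1, a calcium-activated chloride channel, read 10.34, 9.87, 12.05, 7.41 and 8.96 in the order WT day 4, flox/- day 4, WT day 8, flox/- day 8 and WT day 11, with 5.32 to 6.61 outside DOX apart from WT MEF, the highest of the 7. Podxl, a sialomucin of podocytes and of pluripotent human cells, read 10.75, 11.50, 12.73, 7.81 and 10.89, with 6.17 to 8.39 outside. For Ano1 and Podxl, 4 DOX arrays stood clear of the rest and flox/- day 8 lay close to them.

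A smaller number of genes was high at day 4 and lower afterwards. Sv2b, a synaptic vesicle protein, read 7.08 and 6.87 at day 4 and 4.57 to 5.24 on the later DOX arrays, with 4.48 to 5.03 outside DOX. Tmem35a, a chaperone of acetylcholine receptors, read 8.98 and 7.92 at day 4 and 5.25, 5.26 and 6.73 later. Myb, a transcription factor of blood progenitors, read 9.67 and 9.03 at day 4, 6.21 and 6.28 at day 8, and 9.11 at WT day 11. Sv2b and Tmem35a belong to the 15 carried by the day 4 arrays alone, while Myb was high again at WT day 11.

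WT day 4 with WT day 11 was the combination of 18 members. Fndc3c1 read 8.97 and 8.54 there and 4.79 to 5.65 on the other DOX arrays, with 4.46 to 5.03 outside. Crym, a thyroid hormone binding protein, read 10.53 and 9.84, and at most 7.35 elsewhere. Fmo1, a flavin monooxygenase, read 9.67 and 9.46, and at most 7.28 elsewhere. Sostdc1, a BMP and Wnt antagonist, read 7.73 and 7.19, and at most 5.18 elsewhere. These WT arrays were also the DOX arrays with the highest sums of fibroblast markers (13.84 and 12.59) and of 6 macrophage markers (12.62 and 10.31, against 7.71 to 9.72 on the other DOX arrays), all below the highest MEF values of 14.90 and 13.61. Their part in these results was not tested.

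At the other end, 11 members were carried by flox/- day 8 and WT day 11 alone, the DOX arrays with high pluripotency markers. Clec2i, a C-type lectin-like ligand, read 8.65 and 8.53 on them, 3.33 or more above the other 10 arrays. Car4, a membrane-bound carbonic anhydrase, read 6.97 and 10.68 against 4.60 to 5.28. Plac1, a placental membrane protein, read 7.03 and 8.49 against 4.58 to 5.72, and Serpinb9e, a serine protease inhibitor, read 6.39 and 8.09 against 3.97 to 4.57. Each of the 4 genes was near its low level on both pluripotent iPSC arrays and at day 4, and WT day 11 was the higher array for Car4, Plac1 and Serpinb9e. Car2 differed, reading 11.18 and 11.02 against 10.23 in flox/- iPSC.

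Further members among the largest margins belong to none of the lists. Gabrp, a subunit of the GABA-A receptor found in epithelia, read 10.47 at WT day 8 and 6.38 at flox/- day 8, with 4.57 to 5.12 at day 4 and outside DOX, and at WT day 11 it stood 3.93 above its highest level outside DOX. Gpr50, a receptor related to those for melatonin, read 7.80, 11.73, 7.07 and 8.27 on the 4 DOX arrays other than WT day 4, with 4.18 to 5.03 elsewhere. Gpr50 is among the 4 genes carried by all DOX arrays except WT day 4, with Dsc2, Fam83b and Krt8. Slc39a8, a zinc and manganese importer, read 10.25 and 9.37 at WT days 8 and 11 and 7.31 or less elsewhere. Acot1, which cleaves fatty acyl-CoA, read 8.31, 8.72 and 9.04 at WT day 4, flox/- day 4 and WT day 11 but 5.96 and 5.88 at WT and flox/- day 8.

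Vtcn1, an inhibitory ligand of T cells, read 6.65, 8.78, 10.47, 5.77 and 7.48 in the order WT day 4, flox/- day 4, WT day 8, flox/- day 8 and WT day 11, with 4.76 to 5.58 outside DOX. Avil, an actin-binding protein of the villin family, read 9.13, 10.44, 9.50, 5.59 and 7.99, with 5.49 to 6.35 outside. In both genes flox/- day 8 was the lowest DOX array, and the other 4 were above every MEF, iPSC and ESC array. Nt5e, which makes adenosine from AMP outside the cell, read 9.82, 10.50, 12.04, 7.57 and 9.84, with 5.83 to 8.80 outside. Xist, the RNA that silences an X chromosome, read 10.78 and 11.61 at WT days 4 and 8, 8.53 to 9.43 on the other DOX arrays and 5.20 to 9.78 outside DOX; the sex of the cells is not given by the labels used here.

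The trophoblast and placental list had 6 of 46 genes among the members, in several combinations: Plac1, Peg10, Krt8, Krt18, Bmp8b and Rtl1. Bmp8b, a BMP family ligand, read 9.19, 10.76 and 7.60 at flox/- day 4, WT day 8 and WT day 11, with 5.46 to 6.28 outside DOX. The defining factor Cdx2 read 4.72 to 5.41 on all arrays, while Elf5 read 8.47 at WT day 8 and 4.58 to 4.98 elsewhere. Tfap2c read 8.23 at flox/- day 4 and 9.21 at WT day 11. Eomes was highest in -/- ESC (8.61) and Gata3 in -/- MEF (8.27), while Hand1 and Tpbpa reached at most 6.38 and 4.21. The summed signal of these 7 markers was 7.91, 9.22, 9.57, 9.41 and 9.87 in DOX order (WT day 4, flox/- day 4, WT day 8, flox/- day 8, WT day 11). In pluripotent lines it was 9.41 to 9.69. Of the blood list, 3 of 28 genes were members (10.7%). Embryonic globin Hbb-y read 9.63 at flox/- day 4 and 9.10 at WT day 8, 5.34 at WT day 4 and 4.31 to 4.66 on the remaining 9 arrays. Cd34, a progenitor and endothelial sialomucin, read 11.93, 8.01, 10.35, 6.32 and 11.41 in DOX order, with 10.29 in WT MEF.

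Some lists had no member at all: ATF4 and stress response (39 measured genes), pluripotency (39), muscle (29), germline and methylation-sensitive genes (29), mesendoderm (26) and 2-cell-like genes (10). The p53, inflammatory, interferon and growth factor feedback lists had 1 member each, Perp, Il34, Bst2 and Myc, out of 28, 50, 23 and 33 measured genes. Neural genes had 2 of 45, Nefl and Syt1, and transcription factors of other lineages 3 of 63, Ehf, Tfap2a and Grhl2. In all, 52 of the 609 measured genes on any list were members (8.54%). The lists had been drawn up with earlier results of these arrays known, so these shares are descriptions.

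**Figure D4:**
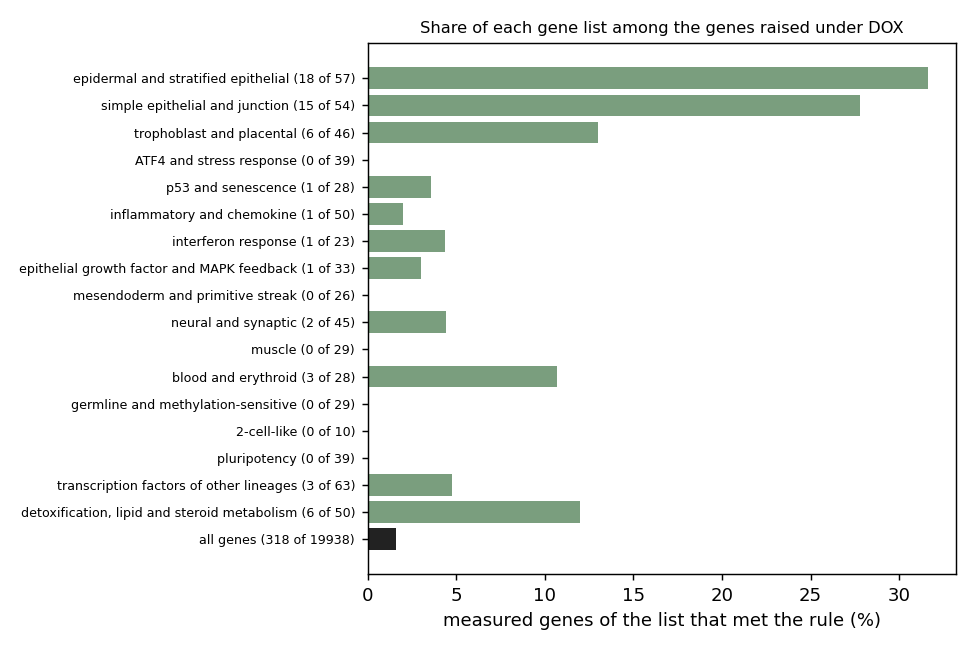
Share of the measured genes of each list that met the rule, in percent, with counts beside each name and all 19938 genes as the black bar at 1.59%. The epidermal bar reaches 31.6% and the simple epithelial bar 27.8%, while 6 lists have no member.

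By gene name, families picked after their values were seen gave 9 of 52 keratins, 5 of 28 claudins, 3 of 8 lipoxygenases, 3 of 16 carbonic anhydrases, 12 of 379 solute carriers and 1 of 350 Zfp genes. Members also lay near each other: 51 of the 317 members placed on GRCm38.p6 had another member within 100 kb (16.1%), and 1322 of 19536 other genes had a member that near (6.77%). The 51 formed 23 clusters. Krt13, Krt14, Krt16 and Krt19 formed the largest, on chromosome 11, and Alox12b, Alox8 and Aloxe3 formed another on the same chromosome, while Ahsg with Fetub, Klk10 with Klk14, Cldn3 with Cldn4 and Krt8 with Krt18 were pairs. All 3 lipoxygenases were carried by flox/- day 4 with WT day 8, as were Ahsg and Fetub, 2 secreted proteins of the fetuin family.

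Genotype was compared on the same day, with 1 array a side and hence no test. At day 4, flox/- read at least 2-fold above WT for 128 members (40.3%, against 3.27% of all genes) and at least 2-fold below for 37 (11.6%, against 5.44%), with a median difference of 0.73. At day 8 the order was the other way: flox/- read at least 2-fold below WT for 248 members (78.0%, against 12.1%) and above for 15 (4.72%, against 9.08%), with a median of -1.95. The 2 days thus differed in sign, and WT day 8 comes from the earlier series, so that genotype and series cannot be told apart at day 8. The rule itself drew most of its members from flox/- day 4 and WT day 8.

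Over the 4 stages that both genotypes have, limma with stage as a block called 0 members between flox/- and WT (background 0%, lowest adjusted p 0.757). At an unadjusted p under 0.05 there were 6 members (1.89%), against 6.3% of all genes. The arrays compared here had also chosen the members, so nothing is read from this count or from the directions. Cd34 was lower in flox/- by 2.51 ± 0.70 (log2, SE, 4 arrays a side), and Peg10, an imprinted placental gene, was higher by 1.33 ± 0.41. Neither passed the adjustment, at a limma adjusted p of 0.757 each. Cd34 had entered the set through WT day 4 and WT day 11 alone.

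Whether the genotype difference changed under DOX was tested as an interaction, for which limma called 0 members as well (background 0%). Unadjusted, there were 24 members (7.55%, against 5.84% of all genes), 22 of them with flox/- minus WT smaller under DOX. The members had been chosen on these DOX arrays, with WT day 8 the highest for 187 of them, so nothing is read from this count or its direction. The lowest adjusted p of limma, 0.655, belonged to Myc, which read 10.82 and 11.97 at WT days 4 and 8 and 6.85 and 8.26 at flox/- days 4 and 8, with 9.32 and 9.55 in WT and flox/- MEF. Its interaction was -4.08 ± 0.18 (log2, SE). Only WT day 4 and WT day 8 carried Myc, so the rule itself favoured this direction and nothing is read from it. Probes for Myc may also read a transgene, which the deposited values cannot separate. With the day 4 pair left out, so that day 8 alone stood for DOX, limma called 97 members (30.5%, against 3.4% of all genes), 96 of them with flox/- minus WT smaller under DOX. The choice of members fixed that direction, since WT day 8 carried 256 of them and flox/- day 8 carried 24. This fit has 1 DOX array of each genotype, assumed to vary like the MEF and iPSC arrays, and its WT array is that of the earlier series.

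Across days, the 3 later DOX arrays were set against the 2 day 4 arrays. Limma called 0 members (background 0%, lowest adjusted p 0.9999), and 30 members at an unadjusted p under 0.05 (9.43%, against 3.77% of all genes). Krt18 was higher late by 3.73 ± 0.40 (log2, SE, 3 against 2 arrays), and Cldn6 by 3.75 ± 0.88. Sv2b was lower late by a difference of -2.10 ± 0.26, and Fgf16, a growth factor, by -1.12 ± 0.13. Among the 30, 13 were higher late, Cldn6, Cldn4, Krt7 and Rab25 of the simple epithelial and junction list among them, and 17 were lower. The same arrays had chosen the members, and days and genotypes are mixed in both groups. The rule favours genes that differ between DOX arrays, since none was carried by all of them. Nothing is therefore read from the share above background or from the directions, and the named differences are descriptions.

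The difference between the pluripotent lines and MEF did not itself enter the rule, although the highest of these same arrays set its ceiling. Limma called 99 of the 318 members at an adjusted p under 0.05 (31.1%), below the background of 41.5% of all genes. Of these, 60 were higher in pluripotent lines (background 20.6%) and 39 lower (background 20.9%), and the median difference over the members was 0.06. The called members thus went in both directions, and 219 members had no called difference. The rule bounds both groups by the same ceiling under the DOX values, which can leave less room for a difference between them. Nothing is therefore read from the share below background or from the small median.

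Among members higher in the pluripotent lines, Car2 stood at 8.79 ± 1.15 (SD, n = 4) against 4.88 ± 0.12 in MEF (SD, n = 3), a 15.1-fold difference (limma adjusted p = 0.00171). Cldn4 was 9.85-fold higher, and so was Fetub, which read 8.73 to 9.43 in pluripotent lines and 5.49 to 5.97 in MEF before reaching 10.78 and 11.23 at flox/- day 4 and WT day 8. Atp2a3, a calcium pump, was 7.19-fold higher, Nefl, a neurofilament subunit, 6.10-fold and Dsp 5.01-fold. These genes were already high in pluripotent lines and higher still on some DOX array. Krt8 was 5.23-fold higher and lost its call without flox/- MEF (limma adjusted p = 0.0507).

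Lower in the pluripotent lines were genes with a fibroblast level. Sbspon, a secreted matrix protein, read 7.18 to 8.74 in MEF and 4.57 to 5.04 in pluripotent lines, a difference of -3.30 ± 0.38 (log2, SE; limma adjusted p = 0.000514). Under DOX it read 9.81, 10.43 and 9.66 on the 3 WT arrays and 7.22 and 4.65 at flox/- days 4 and 8. Only the WT arrays carried it, so the rule itself favoured WT above flox/- under DOX, and nothing is read from that order. Crabp2 differed by -2.29, Megf9 by -1.99 and Rassf2, a Ras effector, by -1.68. Fndc1 differed by -1.74, and its adjusted p rose to 0.114 at most when single arrays were left out.

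**Figure D5:**
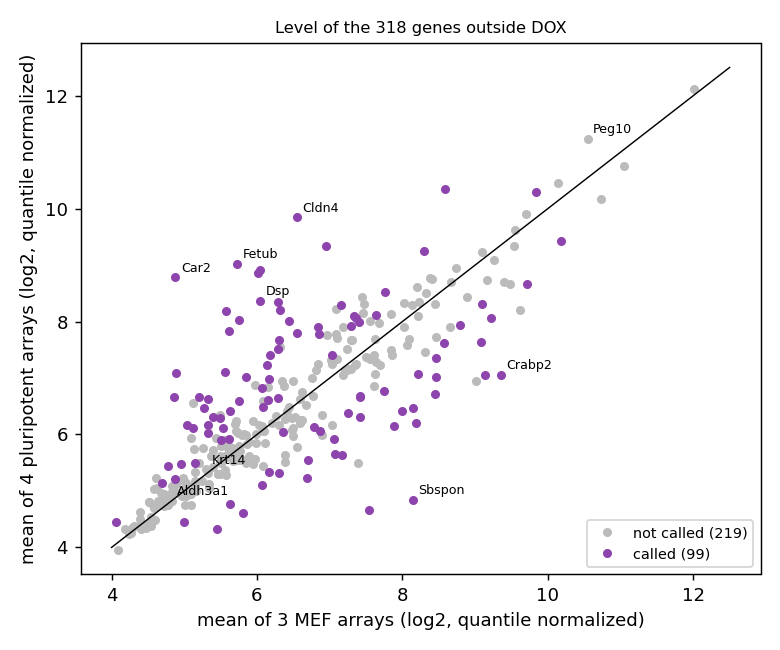
Mean log2 signal of the 318 genes in the 4 pluripotent arrays (vertical) against the 3 MEF arrays (horizontal), after quantile normalization, with the line of equality. The 99 genes called by limma are purple and lie on both sides of the line, 60 above and 39 below.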

How the data were processed

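The values deposited by the authors are on a log2 scale, 1 per probe set and array, from 3.11 to 13.99. Per the labels' protocols, RNA was extracted with TRIZOL and labelled with a 3′ IVT kit, while the probe annotation is that of a whole-transcript array; summary and normalization are not given in the sources used here. Of 35512 probe sets, 21789 had 1 gene symbol, 1621 several and 12102 were not listed; those with 1 symbol gave 19938 genes, and 999 genes had several probe sets. Membership and printed levels use the deposited values. Array medians differed by 0.122, so tests used quantile-normalized values, which moved a member's value by at most 0.0778. Tests were made with limma 3.58.1 in R 4.3.3 (lmFit, eBayes, Benjamini-Hochberg over all genes, threshold 0.05, no filter on dim genes) and tested on simulated data. Of the 318 members, 317 were linked to RefSeq by Entrez identifier, and 307 lay above an array median at least once. The number of arrays limits precision. The members and lists were chosen with earlier results of these data known. Genes named in the text were the 25 largest margins, members of the lists, the top 5 of each DOX array, the 10 largest called in each direction and 3 on each side of the threshold; the others were chosen after their values were seen. Alternatives were other margins, probe sets and normalizations, a filter on dim genes and arrays left out.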

Additional observations from a re-analysis of the deposited data

Results flagged for a closer look

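The spread of 54 named members was examined in the 5 DOX arrays and in the 4 pluripotent arrays, 108 groups. Of these, 5 held an array whose gap to its nearest neighbour took most of the group's range. Among replicates chance does so in about 1 group of 20, and 5 of 108 is near that rate. The DOX arrays are not replicates, and they had chosen these genes, with Krt16 and Alox12b among the top 5 of WT day 8. The flags are therefore descriptions. At WT day 8, Krt16 (11.92) and Alox12b (12.05) stood far above the next DOX values of 5.78 and 5.92. Fam83b, which was high on the other 4 DOX arrays, read 5.19 at WT day 4, with the next value at 8.16. In pluripotent lines, C1ql3 read 6.65 in WT ESC, with 5.44 next, and Vtcn1, an immune checkpoint ligand, read 4.76 in flox/- iPSC, with 5.15 next. Outside the genes with 1 symbol, 27 probe sets with no annotation and 14 with several symbols also met the rule, with margins of up to 4.90 and 2.40.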

How the results depend on the processing

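The number of members was 487 with a margin of 0.5, 194 with a margin of 1.0 and 150 when both arrays taken from the earlier series were dropped, 141 of them among the 318. Leaving out 1 array gave 137 to 371 members; 137 remained without WT day 8 and 168 without flox/- day 4. With 1 array left out, the margin of Krtdap ran from -0.88 (flox/- day 4 or WT day 8, and also with the earlier series dropped) to 4.39, and that of Clec2i from -0.37 (WT day 11 or flox/- day 8) to 3.44. Calls between pluripotent lines and MEF ran from 84 to 103 members and from 6596 to 8204 genes when 1 array was left out. The flox/- against WT comparison called 1 gene and 0 members without the stage block, and the interaction called 0 to 97 members and 0 to 677 genes when 1 array was left out. Of the recomputed counts, 112 stayed within 1.5 times the reported count, counts of 0 against 0 among them, and 10 did not. For single genes, 254 differences kept direction and call and 6 lost their call. Of the recomputed margins of 25 members, 331 moved by less than the spread of the arrays outside DOX. Another 64 margins moved further and 5 changed sign. No paired analysis was possible because the labels carry no replicate numbers, other than the matching of genotypes by stage that the stage block makes. Dim genes are limited by background, and a level near the lowest values has no order.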
